A study of Mus musculus with 24 samples.

Results

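Deep-layer marker genes are transcripts by which the neurons of cortical layers 5, 6 and 6b are told apart, and 9 of them were followed here: Fezf2, Bcl11b, Etv1, Tbr1, Foxp2, Tle4, Nxph4, Cplx3 and Rorb. They were chosen by name, and each matched 1 of the 55417 rows of the count table. Their identifiers there were ENSMUSG00000021743.7 (Fezf2, chromosome 14), ENSMUSG00000048251.16 (Bcl11b, 12), ENSMUSG00000004151.18 (Etv1, 12), ENSMUSG00000035033.16 (Tbr1, 2), ENSMUSG00000029563.17 (Foxp2, 6), ENSMUSG00000024642.18 (Tle4, 19), ENSMUSG00000040258.7 (Nxph4, 10), ENSMUSG00000039714.10 (Cplx3, 9) and ENSMUSG00000036192.16 (Rorb, 19). All 9 passed the filter on low counts and were among the 16767 genes tested. Bulk RNA sequencing gave expression in dissected entorhinal cortex, the gateway between neocortex and hippocampus, from adult mice of 2 to 4 months. Groups labelled day 1, day 2 and day 3, counted from the opening of the GlyCl channel, were compared with vehicle, with 6 libraries in each of the 4 groups. Each day group held 3 females and 3 males, and vehicle held 4 females and 2 males. All groups, vehicle included, were tg/tg offspring of the Nop-tTA Line S driver crossed to TRE-GlyCl-YFP Line 9531, so none was free of the transgenes. GlyCl is an engineered glycine-receptor chloride channel that silences neurons once opened, and the Nop-tTA driver is known for expression mainly in the superficial entorhinal layers, whereas these genes mark the deep ones. The labels name neither the activating agent nor the time at which vehicle tissue was taken, and there was no group without the channel.

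As background, layer identity in the cortex is set by transcription factors that oppose each other in young neurons and remain expressed in the adult. Fezf2 and its target Bcl11b (Ctip2) direct the fate of layer 5 neurons that project below the cortex, whereas Tbr1, with Foxp2 and the co-repressor Tle4, belongs to the layer 6 programme. Etv1 (Er81) marks layer 5, and in the entorhinal cortex Etv1 and Bcl11b are used to separate the upper and lower sublayers of layer 5. Nxph4, a secreted neurexin ligand, and Cplx3, a complexin of the vesicle fusion machinery, are used as markers of layer 6b, the remnant of the subplate. Rorb, a nuclear receptor, is best known from layer 4 and also marks layer 5 neurons that project within the cortex. None of these genes is exclusive to deep neurons: Bcl11b is also strong in hippocampus, in striatum and in interneurons, and Foxp2 in striatum and thalamus.

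Fezf2 and Etv1 were the members whose levels varied together most closely over the libraries, and their promoter windows are therefore shown. The sequences are from RefSeq on GRCm38.p6, 250 bases before to 50 bases after an annotated start, 5′ to 3′ on the gene's strand. The Fezf2 window is chr14:12345816-12346115 (minus strand), and the Etv1 windows are chr12:38779832-38780131 and chr12:38783461-38783760 (plus strand). Capitals mark a GC box (GGGCGG) or a TATA box (TATAAA) found on either strand.
Fezf2: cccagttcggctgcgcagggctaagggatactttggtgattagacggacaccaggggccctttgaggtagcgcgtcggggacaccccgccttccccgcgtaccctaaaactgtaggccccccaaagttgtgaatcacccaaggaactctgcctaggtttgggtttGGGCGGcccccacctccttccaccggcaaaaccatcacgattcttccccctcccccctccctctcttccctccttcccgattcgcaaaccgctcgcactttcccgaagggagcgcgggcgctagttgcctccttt
Etv1 first window: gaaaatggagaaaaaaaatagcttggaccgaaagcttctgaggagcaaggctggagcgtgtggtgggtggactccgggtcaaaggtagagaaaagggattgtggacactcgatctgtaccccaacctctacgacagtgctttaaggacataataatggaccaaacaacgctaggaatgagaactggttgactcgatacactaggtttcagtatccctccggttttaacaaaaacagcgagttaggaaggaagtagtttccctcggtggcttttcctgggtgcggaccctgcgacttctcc
Etv1 second window: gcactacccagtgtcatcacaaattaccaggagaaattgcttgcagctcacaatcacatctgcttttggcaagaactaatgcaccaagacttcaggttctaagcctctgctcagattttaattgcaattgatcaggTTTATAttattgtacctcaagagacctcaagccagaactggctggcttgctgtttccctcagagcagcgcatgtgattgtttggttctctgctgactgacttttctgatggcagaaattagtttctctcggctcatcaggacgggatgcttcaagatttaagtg
The Fezf2 window held 1 GC box, starting at base 166. The first Etv1 window held none of the motifs searched, and the second held 1 TATA box, read on the opposite strand and starting at base 137. Of 32851 mouse promoter windows of the same length, 35.7% held the GC box and 13.6% the TATA box. A T-box motif (AGGTGTGA, in 1.28% of windows), a ROR motif (AGGTCA, 16.3%) and an ETS motif (CCGGAAG, 8.86%) were also searched on both strands and were in none of these 3 windows; the motifs searched did not overlap each other in them. The Fezf2 window had 61.3% GC and 20 CpGs, the Etv1 windows 48.7% with 12 CpGs and 44.0% with 3 CpGs, against medians of 52.7% and 7 over all windows. Windows were found for 7 of the 9 members; Foxp2 and Nxph4 had none in the table used.

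The libraries held 16621659 to 23667449 counted reads. Every member was well counted, the lowest single value being 93 reads for Nxph4, the shortest of the 9 by exon length (1.68 kb). EYFP, the transgene marker, was detected in all libraries but was lower at day 3, with 50.9 to 77.4 CPM at day 3 against 94.3 to 138.8 CPM in vehicle and no overlap (log2 difference -0.89 ± 0.11, edgeR adjusted p = 1.19e-05). Glra1, a glycine receptor subunit gene, had 5.89 to 9.56 CPM at day 3 against 9.78 to 16.3 CPM in vehicle (-0.83 ± 0.13, edgeR adjusted p = 0.000636). The sex labels held in all libraries. Ttr, the main choroid plexus transcript, was at 562 to 1171 CPM (read counts scaled to the effective library size, as CPM) in 8 libraries, 2 of day 1, 2 of day 2, 3 of day 3 and 1 of vehicle, and at 8.37 to 25.9 CPM in the other 16. Superficial-layer genes passed the filter on low counts in 9 of 9 cases. So did striatal markers in 7 of 7 and thalamic markers in 4 of 4, so detection cannot tell which tissue was taken. In bulk tissue fewer cells of a type and less RNA per cell cannot be told apart, so every level below is that of the tissue.

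Per length of exon, Tbr1 was the most abundant of the 9 markers and Foxp2 the least. Mean levels over the 24 libraries were 29.6 ± 2.23 CPM per kb (SD) for Tbr1, 15.1 ± 1.57 for Fezf2, 14.4 ± 1.316 for Bcl11b and 12.2 ± 1.21 for Tle4. Cplx3 stood at 8.60 ± 1.08, Etv1 at 8.45 ± 0.887, Nxph4 at 4.05 ± 0.546, Rorb at 3.99 ± 0.411 and Foxp2 at 0.869 ± 0.118 CPM per kb. Several neighbours in that order were not separated: Fezf2 was above Bcl11b in 17 of 24 libraries, Cplx3 above Etv1 in 12 and Nxph4 above Rorb in 12. Bcl11b exceeded Tle4 in 21, and the other steps held in all 24. Exon lengths came from the GRCm38 annotation and unite all annotated exons, so genes with long untranslated ends, such as Foxp2 (16.3 kb), are placed low by this scale. The coefficient of variation over the 24 libraries had a median of 10.4% for the 9 genes, against 7.76% for the 9590 genes within their range of mean CPM and 10.05% for all genes tested.

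**Figure D1:**
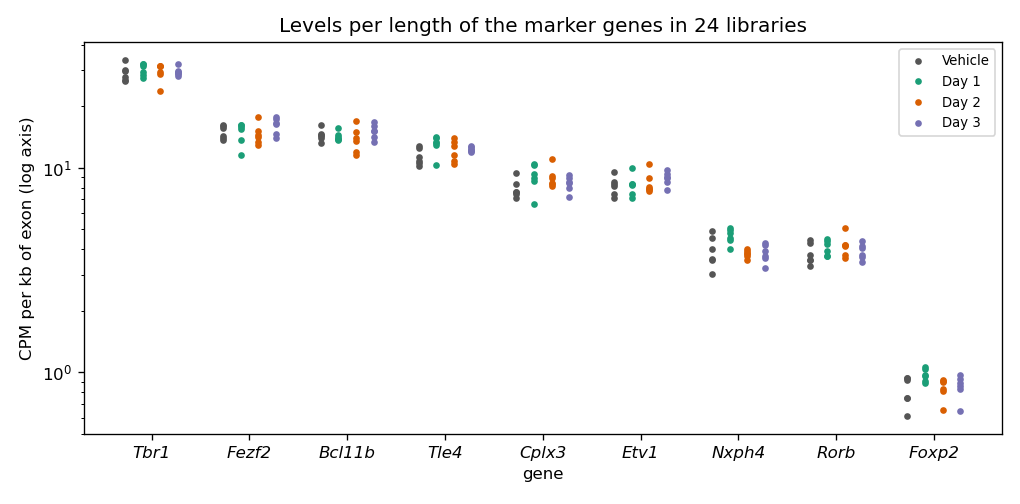
CPM per kb of exon (log axis) of the 9 deep-layer marker genes in each of the 24 libraries, ordered from Tbr1 to Foxp2, with the groups side by side from vehicle to day 3. Tbr1 lies above all others and Foxp2 below all others in every library, while Cplx3 and Etv1, and Nxph4 and Rorb, overlap.

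The first question was whether the deep-layer markers differed from vehicle on any day. No marker was called changed on any day: 0 of 9 at day 1, 0 of 9 at day 2 and 0 of 9 at day 3 passed the edgeR quasi-likelihood test at an adjusted p under 0.05. Over all genes tested the shares called were 0.0656% at day 1, 0.0656% at day 2 and 0.614% at day 3, so few calls were to be found anywhere. The same held for the joint test of the 4 groups (0 of 9, against 0.644% of all genes) and for day 3 against day 1 (0 of 9, against 0.65%). At an unadjusted p under 0.05 there were 3 members at day 1, 0 at day 2, 0 at day 3 and 1 for day 3 against day 1, against 7.25%, 5.2%, 5.64% and 8.39% of all genes. The 3 at day 1 (Foxp2, Tle4 and Nxph4) were higher, as 2.93% of all genes were at that threshold, and the 1 at day 3 against day 1 (Nxph4) was lower, as 3.27% were. DESeq2 and limma voom also called 0 of 9 in each comparison. The median log2 fold change of the 9 was 0.09 at day 1, 0.02 at day 2 and 0.06 at day 3, with medians of 0.00 over all genes, and 7, 6 and 8 of the 9 lay above 0, against 50.6%, 50.3% and 49% of all genes. The 3 comparisons share the vehicle libraries, so these counts are not independent of each other.

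Among the layer 5 markers, Fezf2, the master regulator of neurons that project below the cortex, had 41.6, 45.7 and 49.2 CPM in vehicle (lowest, median, highest), 35.2, 47.6 and 49.5 CPM at day 1, 39.3, 43.8 and 53.8 CPM at day 2 and 42.6, 50.2 and 54.1 CPM at day 3. Each day overlapped vehicle, although 4 of 6 day 3 libraries lay above the highest vehicle library. Its log2 fold change against vehicle was -0.04 ± 0.07 (SE) at day 1, -0.05 ± 0.07 at day 2 and 0.09 ± 0.07 at day 3 (edgeR adjusted p = 0.960, 0.991 and 0.999). Etv1, an ETS-family transcription factor, had 94.7, 109 and 126 CPM in vehicle, 94.7, 110.0 and 133 CPM at day 1, 103, 106 and 139 CPM at day 2 and 104, 119 and 130.0 CPM at day 3. Its groups overlapped throughout, and the log2 fold changes were 0.01 ± 0.08, 0.04 ± 0.08 and 0.11 ± 0.08. Bcl11b, a zinc-finger factor needed for the corticospinal projection, spanned 94.1 to 138 CPM over all libraries, with log2 fold changes of -0.03 ± 0.07, -0.07 ± 0.07 and 0.06 ± 0.07. The 95% intervals of these 9 differences ran at their widest to -0.22 (Bcl11b, day 2) and 0.27 (Etv1, day 3) on the log2 scale, so larger changes of a layer 5 marker lay outside them.

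Among the layer 6 markers, Tle4 and Foxp2 were at 0.18 and 0.24 on the log2 scale at day 1 and Tbr1 at 0.04, none of them called. Tle4, a Groucho-family co-repressor of corticothalamic neurons, had 58.8, 75.7 and 80.6 CPM at day 1 (lowest, median, highest) against 58.1, 63.1 and 72.6 CPM in vehicle. In 5 of 6 day 1 libraries it was above every vehicle library, and the sixth lay at the low end of vehicle, so the groups overlapped. The log2 difference was 0.18 ± 0.06 (95% interval 0.05 to 0.31, edgeR adjusted p = 0.425). At day 2 Tle4 had 59.4, 69.6 and 79.5 CPM and at day 3 68.4, 70.1 and 72.5 CPM, with log2 differences from vehicle of 0.08 ± 0.06 and 0.11 ± 0.06.

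Foxp2, a forkhead factor of corticothalamic neurons, had 14.4, 15.8 and 17.4 CPM at day 1 against 9.96, 13.6 and 15.4 CPM in vehicle. All 6 day 1 libraries were above the vehicle median and 4 were above every vehicle library. Its log2 difference was 0.24 ± 0.10 (95% interval 0.03 to 0.44, edgeR adjusted p = 0.572), against 0.02 ± 0.10 at day 2 (10.7, 14.1 and 14.998 CPM) and 0.05 ± 0.10 at day 3 (10.6, 14.3 and 15.8 CPM). Tbr1, the T-box factor that specifies layer 6, spanned 146 to 184 CPM in vehicle, 151 to 177 CPM at day 1, 131 to 173 CPM at day 2 and 155 to 177 CPM at day 3. The Tbr1 groups lay on top of each other, with log2 differences of 0.04 ± 0.06, 0.01 ± 0.06 and 0.01 ± 0.06, and its 3 intervals all stayed between -0.12 and 0.17.

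Of the layer 6b markers, Nxph4 had 6.72, 7.80 and 8.46 CPM at day 1 against 5.07, 6.33 and 8.18 CPM in vehicle, with all 6 day 1 libraries above the vehicle median and 2 above every vehicle library. Its log2 difference was 0.22 ± 0.09 (95% interval 0.03 to 0.41, edgeR adjusted p = 0.562). At day 2 it had 5.95, 6.38 and 6.70 CPM and at day 3 5.43, 6.39 and 7.20 CPM, and the log2 differences from vehicle were -0.06 ± 0.09 and -0.05 ± 0.09. In the comparison of day 3 with day 1, Nxph4 differed by -0.27 ± 0.09 on the log2 scale (95% interval -0.46 to -0.08), which did not pass adjustment (edgeR adjusted p = 0.251). Cplx3 spanned 21.1 to 27.9 CPM in vehicle, 19.6 to 30.9 CPM at day 1, 24.1 to 32.7 CPM at day 2 and 21.2 to 27.2 CPM at day 3, with log2 differences of 0.17 ± 0.09, 0.16 ± 0.09 and 0.07 ± 0.09. Rorb, the marker shared with layer 4, spanned 36.8 to 56.0 CPM over all libraries and differed from vehicle by 0.09 ± 0.08, 0.12 ± 0.08 and 0.02 ± 0.08, none of which passed the test.

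**Figure D2:**
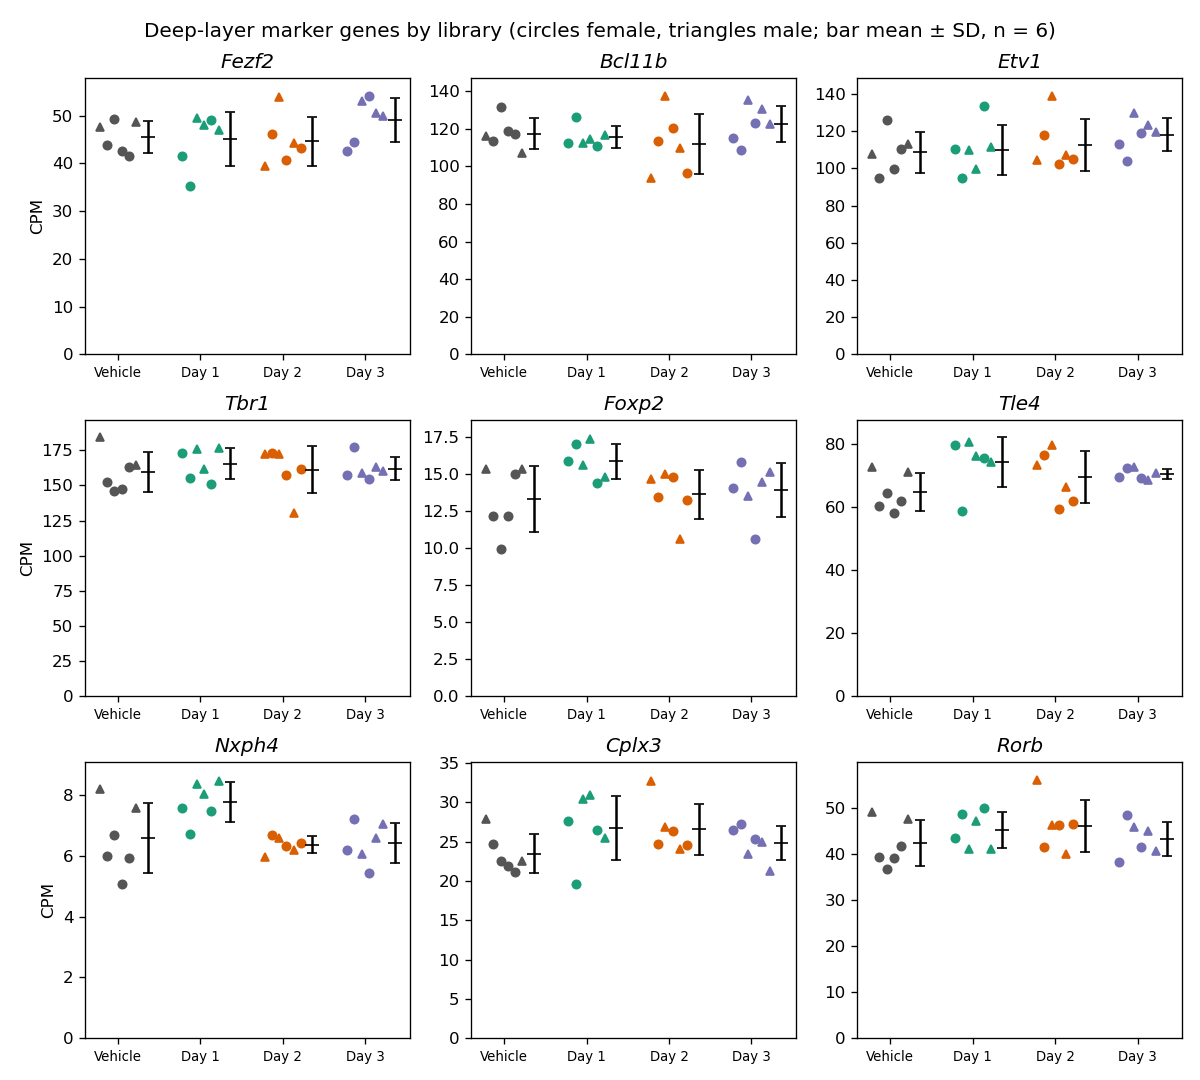
CPM of each deep-layer marker gene in every library (y axis from 0), by group from vehicle to day 3; circles are females, triangles males, and the bar beside each group is the mean ± SD of 6 libraries. For every gene the days overlap vehicle, and Tle4, Foxp2 and Nxph4 sit higher at day 1 than most vehicle libraries.

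**Figure D3:**
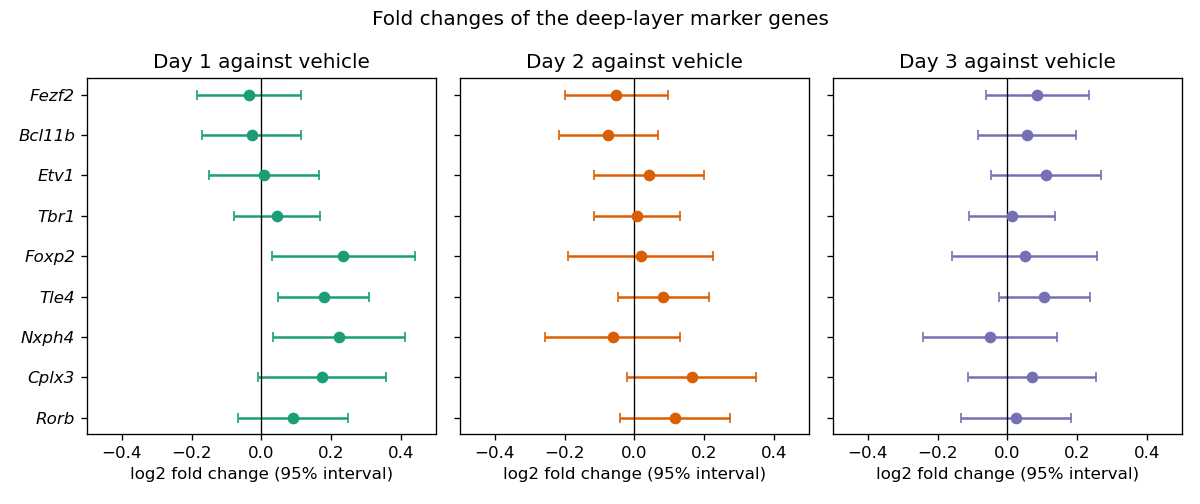
Log2 fold change of each marker gene at day 1, day 2 and day 3 against vehicle, with its 95% interval from the edgeR fit over 24 libraries. At day 1 the intervals of Foxp2, Tle4 and Nxph4 lie above 0 before adjustment over all genes; at day 2 and day 3 every interval includes 0.

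The day 1 differences were examined beside sex, choroid plexus transcript and neighbouring tissue, since vehicle held fewer males. In females Tle4 had 58.8 to 79.6 CPM at day 1 (3 libraries) against 58.1 to 64.5 CPM in vehicle (4 libraries), and in males 74.0 to 80.6 CPM (3) against 71.0 to 72.6 CPM (2). Nxph4 had 6.72 to 7.57 CPM against 5.07 to 6.68 CPM in females, and 8.03 to 8.46 CPM against 7.58 to 8.18 CPM in males. Foxp2 had 14.4 to 17.1 CPM against 9.96 to 15.03 CPM in females, whereas in males day 1 (14.9 to 17.4 CPM) enclosed the 2 vehicle libraries, both at 15.4 CPM. The group by sex interaction was called for 0 of 9 markers and for 0 of all genes tested by edgeR (3.49% of genes, and 1 marker, Rorb, had an unadjusted p under 0.05); the other tools were not run on it.

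Without the 8 libraries rich in Ttr, the day 1 log2 difference was 0.24 for Tle4, 0.22 for Foxp2 and 0.24 for Nxph4. The unadjusted p of Foxp2 was 0.05 or more in 4 of 35 alternative settings, that of Nxph4 in 2 and that of Tle4 in 0, and the adjusted p was 0.0693 to 0.756 for Tle4, 0.421 to 0.765 for Foxp2 and 0.432 to 0.852 for Nxph4 over these settings. Exact permutation tests of mean CPM (two-sided, 6 against 6, smallest possible p 0.00216) gave p = 0.0411 for Tle4, 0.0411 for Foxp2 and 0.0498 for Nxph4 at day 1, and an adjusted p of 0.380 for each over the 27 tests of members and days. These permutation tests took no account of sex, although vehicle held 4 females and 2 males and day 1 held 3 of each. All 9 markers had a fitted difference below 0 in females against males. No marker had groups that failed to overlap, against 0.596%, 0.328% and 0.662% of all genes at day 1, day 2 and day 3. Striatal neuron markers, chosen because the striatum also uses Foxp2 and Bcl11b, were above 0 at day 1 in 7 of 7 genes (median log2 difference 0.12, 0 called), with a summed level of 112 to 210 CPM at day 1 against 125 to 155 CPM in vehicle. Over the 24 libraries, with group and sex removed, the mean of that list had r -0.50 with Tle4, 0.17 with Foxp2 and -0.12 with Nxph4. Their rho was -0.47, 0.25 and -0.06 (permutation adjusted p of r = 0.0882, 0.604 and 0.756). Choroid plexus markers were above 0 in 8 of 8 genes at day 1 (median 0.63, 0 called), with a summed level of 176 to 1572 CPM at day 1 against 141 to 1871 CPM in vehicle. Other neighbouring tissues did not share the striatal lean at day 1. Of 4 thalamic markers 1 was above 0 (median log2 difference -0.06), and of 5 hippocampal markers 3 were (median 0.04). Of 2 basolateral amygdala markers 1 was (median 0.004), and 0 were called in any of these lists. Over all genes 50.6% were above 0 at day 1. The part of any of these lists in the day 1 values of the layer 6 markers was not tested.

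Other genes of the same layers were read from lists beside the members. Of 8 other corticothalamic layer 6 genes, 7 were above 0 at day 1 (median 0.09), and none was called. The lean was not confined to day 1. At day 2 and at day 3, 6 of the 8 were above 0 (median 0.04 on each day, 0 called), against 50.3% and 49% of all genes. Sla, a gene of that list, was at 0.07 at day 1, 0.17 at day 2 and 0.18 at day 3 on the log2 scale. Ntsr1, the neurotensin receptor that defines corticothalamic neurons, had 15.7 to 20.1 CPM at day 1 against 12.7 to 18.5 CPM in vehicle, a log2 difference of 0.19 ± 0.08 (edgeR adjusted p = 0.615). Of 5 other layer 6b genes, 4 were above 0 on each of the 3 days (medians 0.05, 0.04 and 0.02, 0 called). Ccn2, a matricellular protein long used as a layer 6b marker, had 23.03, 30.6 and 32.3 CPM (lowest, median, highest) at day 1 against 19.5, 23.01 and 30.05 CPM in vehicle, a log2 difference of 0.31 ± 0.09 (95% interval 0.13 to 0.48, edgeR adjusted p = 0.226). It passed in 1 of 35 other settings, the one with no filter on low counts (adjusted p = 0.00258).

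Lists of other cortical cell classes, deep and superficial, leaned the other way at day 1 or not at all. Of 9 other layer 5 genes of neurons projecting below the cortex, 3 were above 0 (median -0.07), and Nefh, the heavy neurofilament, had 60.2 to 70.1 CPM at day 1 against 62.0 to 89.2 CPM in vehicle (log2 difference -0.23 ± 0.09, edgeR adjusted p = 0.494). Of 6 genes of layer 6 neurons projecting within the cortex and of the claustrum, 1 was above 0 (median -0.06), and of 9 superficial-layer genes, 4 were (median -0.03). Of 5 layer 5 near-projecting genes, 3 were above 0 (median 0.01). Among 5 other layer 4 and 5 genes of neurons projecting within the cortex, 1 was (median -0.08). None of these genes was called. These medians describe the lists and were not tested, and over all genes 50.6% were above 0 at day 1.

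A relative of the members was the exception among transcription factors. Etv4, an ETS factor of the same PEA3 subfamily as Etv1, had 8.89, 9.81 and 12.9 CPM at day 3 (lowest, median, highest) against 6.20, 7.60 and 8.55 CPM at day 1, and the 2 groups did not overlap. It was higher at day 3 by 0.43 ± 0.10 on the log2 scale (edgeR adjusted p = 0.0232), 1 of 101 genes called higher in that comparison (0.602% of genes tested). Vehicle had 9.27, 10.3 and 10.5 CPM, so the day 1 libraries also lay below all vehicle libraries. At day 1, 69 of 16767 genes lay wholly below vehicle. The log2 difference of Etv4 from vehicle at day 1 was -0.39 ± 0.10, which did not pass (edgeR adjusted p = 0.129). It passed in 1 of 35 other settings, DESeq2 (adjusted p = 0.0345). Etv1 itself differed between day 3 and day 1 by 0.10 ± 0.08. The Etv4 call for day 3 against day 1 held in 27 of 35 other settings. That call was lost with the animal number series in the model (adjusted p = 0.123). The series is a grouping made here from the leading digits of the animal numbers. The call was also lost without the libraries rich in Ttr, with only the groups compared, and without Day1 replicate 1, 3 or 5 or Day3 replicate 1 or 6.

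Between the sexes all 9 markers had a fitted difference below 0 (female minus male), and none passed the test. The log2 difference, female minus male, ran from -0.15 ± 0.07 for Nxph4, -0.13 ± 0.05 for Fezf2 and -0.12 ± 0.05 for Tle4 to -0.02 ± 0.05 for Bcl11b, with a median of -0.09. None was called (0 of 9; 0.0716% of all genes were called; edgeR adjusted p = 0.631 for Fezf2 and 0.671 for Nxph4), and over all genes the median was 0.00 with 49.4% below 0. In males, for example, Fezf2 had 47.7 to 48.6 CPM in vehicle, 47.1 to 49.5 CPM at day 1, 39.3 to 53.8 CPM at day 2 and 49.8 to 53.0 CPM at day 3. In females it had 41.6 to 49.2 CPM in vehicle, 35.2 to 49.1 CPM at day 1, 40.8 to 46.1 CPM at day 2 and 42.6 to 54.1 CPM at day 3. The 9 genes vary together in part, as the next values show, so the 9 signs are not 9 separate observations.

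The second question was how the markers varied among themselves from library to library, with group and sex removed from log2 CPM. Fezf2 and Etv1, both layer 5 genes, rose and fell together: Pearson's r was 0.73 and Spearman's rho 0.62 over 24 libraries (permutation p = 4e-05 and 0.00173; adjusted over the 36 pairs of markers, 0.00144 for r and 0.0623 for rho). Without the 2 libraries farthest from the Fezf2 median r was 0.74 (adjusted p = 0.00432). The libraries with the highest Etv1 were Day2 replicate 3, Day1 replicate 5, Day3 replicate 3 and Vehicle replicate 3, at 139, 133, 130.0 and 126 CPM, and these 4 had 53.8, 49.1, 53.0 and 49.2 CPM of Fezf2. The lowest Etv1 libraries, Day1 replicate 2 and Vehicle replicate 2, both at 94.7 CPM, had 35.2 and 43.7 CPM of Fezf2. The relation kept an adjusted p under 0.05 in each of the 6 alternatives run, with r of 0.77 without the libraries rich in Ttr, 0.65 with the animal number series also removed, 0.81 in the 13 females alone and 0.88 in the 11 males alone. Permuting values after group and sex were removed makes these p-values slightly too small.

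**Figure D4:**
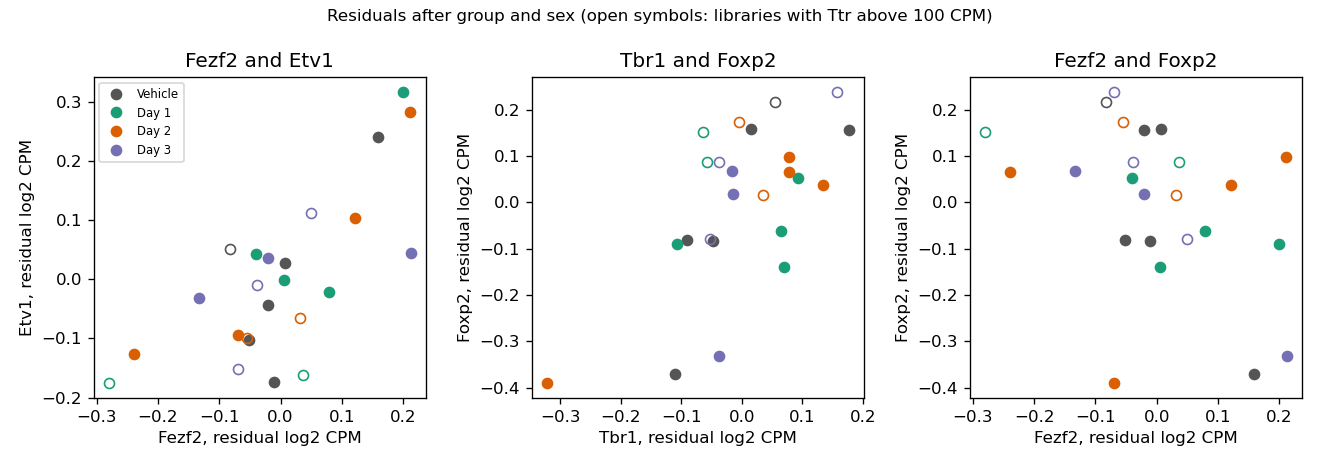
Residual log2 CPM of 3 pairs of markers over 24 libraries after group and sex were removed, coloured by group; open symbols are the 8 libraries with Ttr above 100 CPM. Fezf2 and Etv1 rise together (r 0.73), Tbr1 and Foxp2 rise together (r 0.64), and Fezf2 and Foxp2 lean in opposite directions (r -0.43).

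In all, 23 of 36 pairs were positive, and 8 had an adjusted p under 0.05 by Pearson's r and 0 by Spearman's rho. The other 7 were weaker. Tbr1 and Foxp2, the layer 6 factors, had r 0.64 and rho 0.52 (adjusted p = 0.0124 and 0.0806), Foxp2 and Rorb r 0.58 and rho 0.55, and Tbr1 and Nxph4 r 0.53 and rho 0.50. Tle4 was in 4 of the 8 pairs, with layer 5 genes (Etv1 r 0.53 and rho 0.50, Fezf2 r 0.52 and rho 0.41) and with others (Tbr1 r 0.53 and rho 0.55, Cplx3 r 0.53 and rho 0.50). For each pair the 2 libraries farthest from the median of 1 of its genes were then left out, which narrows that gene's range and can lower r. Choosing them by the other gene was not tried. Without those 2 libraries these 7 fell to r of 0.37 to 0.49 and none had an adjusted p under 0.05 (0.171 to 0.277). The calls did not hold without those libraries, although every r stayed positive. Tbr1 and Foxp2 had r of 0.74 without the libraries rich in Ttr (adjusted p = 0.00948) and 0.52 with the animal number series removed (adjusted p = 0.0489). In females alone they had r 0.59 (adjusted p = 0.204) and in males alone 0.71 (adjusted p = 0.125). The lowest pair was Fezf2 and Foxp2, with r -0.43 and rho -0.44 (adjusted p = 0.122 and 0.137), and Bcl11b and Cplx3 had r -0.40 and rho -0.43.

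**Figure D5:**
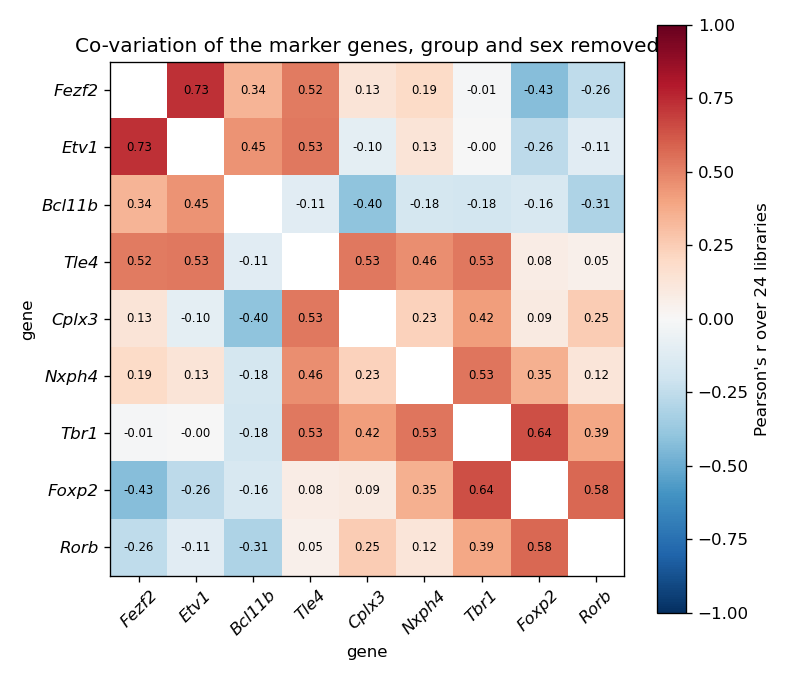
Pearson's r of every pair of the 9 marker genes over 24 libraries, with group and sex removed; the colour scale runs from -1 to 1. Fezf2 and Etv1 form the strongest pair at 0.73, Foxp2 is at 0.64 with Tbr1 and 0.58 with Rorb, Tbr1 and Rorb are at 0.39 (adjusted p = 0.161), and Bcl11b is below 0 with the layer 6 and layer 6b genes and with Rorb.

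The markers also varied with transcripts of other cells, in 216 relations computed together. Etv1 and Fezf2 both fell as endothelial markers rose (r -0.74 and rho -0.68 for Etv1, r -0.72 and rho -0.67 for Fezf2; permutation adjusted p of r = 0.00486 for each, and 0.025 of rho), and r without the 2 farthest libraries was -0.60 and -0.65. Etv1 had r -0.59 and rho -0.66 with oligodendrocyte markers (adjusted p = 0.04 and 0.025). Foxp2 had the opposite sign with oligodendrocyte markers, r 0.65 and rho 0.63 (adjusted p = 0.0188 and 0.0306; r 0.56 without the 2 farthest libraries). The summed endothelial level was 129 to 177 CPM in vehicle, 132 to 182 CPM at day 1, 137 to 161 CPM at day 2 and 138 to 174 CPM at day 3, so it overlapped between groups. Within this family Tle4 had r 0.65 and rho 0.59 with EYFP, the transgene marker (adjusted p = 0.0188 and 0.0555; r 0.48 without the 2 farthest), and Fezf2 r 0.57 and rho 0.56 (adjusted p = 0.0533 and 0.0616). Tle4 fell as oligodendrocyte precursor markers rose (r -0.62 and rho -0.57, adjusted p = 0.0283 and 0.0576), and Fezf2 had r -0.59 and rho -0.44 with thalamic neuron markers (adjusted p = 0.04 and 0.164; r -0.40 without the 2 farthest). In all, 13 of the 216 had an adjusted p of r under 0.05. With Ttr, Foxp2 had r 0.50 and rho 0.53 and Tle4 r -0.48 and rho -0.41 (adjusted p of r = 0.0861 and 0.1). The part of vessel, myelin or choroid plexus content of a dissection in the relations between markers was not tested.

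Relations with lists of neuronal genes were as follows. Bcl11b and Etv1 rose with a list of 10 other cortical identity factors (r 0.73 and rho 0.64 for Bcl11b, r 0.70 and rho 0.65 for Etv1; adjusted p of r = 0.00486 for each, and 0.025 of rho). Tbr1 and Tle4 rose with the partners of neurexophilin and complexin, namely neurexins, SNARE proteins and Syt1. The values were r 0.67 and rho 0.67 for Tbr1 and r 0.60 and rho 0.72 for Tle4 (adjusted p of r = 0.016 and 0.0353). Nxph4 and Cplx3, for which that list was made, missed the threshold with it. They had r 0.41 and rho 0.31, and r 0.42 and rho 0.53 (adjusted p of r = 0.176 and 0.159). Rorb fell as layer 5 near-projecting genes rose (r -0.63 and rho -0.62, adjusted p = 0.024 and 0.0306), and Cplx3 rose with other layer 4 and 5 genes of neurons projecting within the cortex (r 0.62 and rho 0.62, adjusted p = 0.0269 and 0.0306). Etv1 and the other layer 5 genes of neurons projecting below the cortex had r 0.56 and rho 0.52, which missed the threshold (adjusted p = 0.0596 and 0.0884).

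Among 13358 other genes, those whose residual levels ran most like each marker's over the 24 libraries were taken, 3 for each, as a description. For Fezf2 they were Nr4a2 (r 0.82, rho 0.73), a nuclear receptor that is itself a deep-layer and subplate marker, Cntnap4 (r 0.79, rho 0.77) and Chrna5 (r 0.76, rho 0.74), a nicotinic receptor subunit known from layer 6. Nr4a2 is 1 of the 6 listed genes of layer 6 neurons projecting within the cortex and of the claustrum. The mean of that list had the other sign with Fezf2, r -0.40 and rho -0.35 (permutation adjusted p = 0.190 and 0.312). For Bcl11b they were Auts2, Slit3 and Chst1 (r 0.86 to 0.87, rho 0.79 to 0.89), and for Etv1 Hspa4, Sv2b and Ptprn2 (r 0.89 to 0.90, rho 0.85 each). Tbr1 ran with Ipcef1, Satb1 and Arap2 (r 0.78 to 0.82, rho 0.67 to 0.78). Satb1 is a chromatin organiser of cortical neurons.

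Foxp2 ran with Lrrc49, Car2 and Enpp6 (r 0.80 to 0.83, rho 0.72 to 0.79), of which Car2 and Enpp6 are known from oligodendrocytes. Tle4 ran with Uba2, Vxn and Efr3a (r 0.83 to 0.87, rho 0.83 to 0.86), Cplx3 with Cend1, Sult4a1 and Akr1b3 (r 0.85 to 0.86, rho 0.79 to 0.89), and Rorb with Sytl2, Scn1a and Fbxo32 (r 0.79 to 0.83, rho 0.75 to 0.79). For Nxph4 the closest were Rpl34-ps1, Rab7 and Ell2 (r 0.71 to 0.80, rho 0.61 to 0.79); Rpl34-ps1 is a ribosomal pseudogene whose reads may belong to its parent gene.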

How the data were processed

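RNA from dissected entorhinal cortex, per the labels, was sequenced as 24 libraries, and the authors deposited 1 table of raw counts per gene (whole numbers). Per the submitters' processing notes the tools included STAR 2.7.9a, DESeq2 1.32.0 and fastp 0.23.1, and the build was mm39. Which program counted, with which annotation and strand setting, is not given in the sources used here, so overlapping or antisense genes cannot be told apart. Of 55416 Ensembl identifiers 52083 matched a symbol. Groups came from the treatment label and columns from library names. Separate animal numbers per library are in the labels, which do not say outright that animals were separate; p-values otherwise measure spread between libraries.

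Differences were tested by the quasi-likelihood method of edgeR 4.0.16 (TMM factors, filterByExpr with a minimum count of 10 and a minimum total of 15, group and sex over 24 libraries, R 4.3.3). The adjustment was Benjamini-Hochberg over 16767 genes, with a call at an adjusted p under 0.05; all tests were two-sided. Total counts were 16621659 to 23667449 per library, and the biological coefficient of variation was 8.51%. For the 60 pairs of libraries within groups, chi-square per degree of freedom ran between 3.71 and 12.6, so none agreed within sampling noise. Correlations used log2 CPM (prior count 2) with group and sex removed and 100000 permutations, with Benjamini-Hochberg adjustment over each family. In relations of a marker with another transcript or list, the 2 farthest libraries were those farthest from the median of that transcript or list mean. Named genes were all 9 members, the 3 genes most like each (mean log2 CPM of at least 1), and, of 22 other lists with 146 genes, every called gene or else the 2 with the smallest joint p, of which only some are printed and some are not reported here; 140 of the 146 were tested. Exon lengths came from a GRCm38 annotation and served as lengths only. The edgeR step was tested on simulated data. Alternatives were other factors, filters and models, DESeq2 1.42.0, limma voom 3.58.1, fewer groups, leaving out the libraries rich in Ttr, and leaving out each library. Members and lists were chosen with earlier results of these data known.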

Additional observations from a re-analysis of the deposited data

Results flagged for a closer look

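Of 36 sets of 6 libraries (9 genes in 4 groups), 3 held a library far from the others by Dixon's gap ratio, where chance gives about 1 in 20 sets. Tle4 was 58.8 CPM in Day1 replicate 2, against 74.0 to 80.6 CPM in the other 5 day 1 libraries; that library also had 887 CPM of Ttr, and the lowest EYFP of day 1 (75.9 CPM). Without it the day 1 log2 difference of Tle4 from vehicle was 0.23. Tbr1 was 177 CPM in Day3 replicate 2, against 155 to 163 CPM in the other day 3 libraries, and that library had 665 CPM of Ttr. Cplx3 was 32.7 CPM in Day2 replicate 1, against 24.1 to 26.9 CPM in the other day 2 libraries, and its Ttr was 18.9 CPM. What set these libraries apart was not tested.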

How the results depend on the processing

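No paired analysis was possible because the labels give the groups no shared replicate numbers. The animal number series, made here from the leading digits of the animal numbers and shared between groups, was fitted as a term instead. Whether it marks a batch was not tested. No marker was called in any of 174 fits over 35 alternative settings. Of 1260 log2 fold changes of markers under these settings, 40 had the other sign, the one farthest from 0 being -0.11 (Foxp2 at day 2). With the animal number series in the model, Tbr1, Foxp2 and Rorb were at -0.024, -0.11 and -0.0068 at day 2 and -0.0080, -0.012 and -0.0099 at day 3. With log2 Ttr in the model, Foxp2 was at -0.016 and -0.012 at day 2 and day 3 and Rorb at -0.00080 at day 3. Without the libraries rich in Ttr, Fezf2 was at 0.0092 at day 1, Tbr1 and Foxp2 at -0.00055 and -0.0085 at day 2 and Rorb at -0.015 at day 3. Leaving out 1 library at a time gave -0.085 to 0.023 for Fezf2, -0.063 to 0.0082 for Bcl11b and -0.073 to 0.059 for Etv1 at day 1. At day 2 it gave -0.018 to 0.090 for Etv1, -0.025 to 0.064 for Tbr1 and -0.048 to 0.086 for Foxp2. At day 3 it gave -0.024 to 0.058 for Tbr1, -0.016 to 0.12 for Foxp2, -0.11 to 0.0084 for Nxph4 and -0.023 to 0.070 for Rorb. The cause was not tested.

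Counts over all genes moved more. With no filter on low counts 159, 86 and 217 genes were called at day 1, day 2 and day 3, 295 for day 3 against day 1 and 433 in the joint test. DESeq2 called 69 at day 1, 18 at day 2 and 208 jointly. The animal number series gave 31 at day 1 and 53 for day 3 against day 1. At day 2 the filter of 1 CPM gave 7, limma voom 7 and only the groups compared 3. Without the libraries rich in Ttr 2, 49, 47 and 59 genes were called (day 2, day 3, day 3 against day 1, joint). Leaving out 1 library gave 4 to 28 at day 1, 7 to 12 at day 2, 72 to 110 at day 3, 44 to 117 for day 3 against day 1 and 68 to 132 jointly. At day 1 the count was 4 without Vehicle replicate 6, 5 without Vehicle replicate 4 or Day1 replicate 1, 6 without Day1 replicate 4, 19 without Day1 replicate 2, 22 without Day2 replicate 3 and 28 without Vehicle replicate 3. For day 3 against day 1 it was 44 and 53 without Day3 replicates 6 and 1, and 62 and 67 without Day1 replicates 5 and 6. Jointly it was 68 without Day3 replicate 1 or 6, and at day 2 it was 7 without Day2 replicate 2 or Vehicle replicate 5. Pairs of markers with an adjusted p under 0.05 numbered 8 as reported, 10 with group and sex kept (8 shared), 6 without the libraries rich in Ttr (3 shared) and 8 with a prior count of 0.5 (8 shared). In settings added after seeing the data they numbered 7 with the animal number series removed (4 shared), 2 in females alone (1 shared) and 4 in males alone (1 shared), with 13 and 11 libraries.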
